A study of Mus musculus with 15 samples.

Results

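Transcript levels in jejunal epithelium were compared with those in ileal epithelium of adult wild-type CD1 mice. The arrays were chosen by their titles, 3 of jejunum and 3 of ileum, and are 6 of the 15 Affymetrix Mouse Gene 1.0 arrays of a study of Gata4 in the small intestine. The other arrays are ileum of Gata4 cKI mice, jejunum of Gata4 cKO mice and a control ileum. Epithelial cells were isolated before RNA was prepared, and the stretch of gut taken, the age in weeks, the sex and the method of isolation are not given in the sources used here. The 3 control ileum arrays, whose label gives no strain or genotype, are set beside the others as levels only.

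The small intestine changes its work along its length while keeping an epithelium of absorptive enterocytes with scattered goblet, Paneth, tuft and hormone cells. Jejunal enterocytes take up most sugars, fats, amino acids and folate. Ileal enterocytes reclaim bile acids and face a denser microbiota, and goblet cells become more frequent toward the colon. Regional identity is held by transcription factors in the epithelium itself, among them Gata4, which is known to be expressed in the proximal and not in the most distal small intestine.

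All levels are the deposited log2 values, and all differences are jejunum minus ileum on that scale, given with the standard error from a linear model (limma) that takes its spread from all 15 arrays. A gene was called at an adjusted p under 0.05, and means over the n = 3 arrays of a region are given ± SD. Genes were tested where the largest mean among the 5 groups of the study exceeded 4.91, the median of all values. A mean under 4.91 was not told from background here, and no fold change is given for such a gene. Whether the arrays of a region came from separate mice is not stated, so the p-values measure the spread between these samples only, which may be technical. The number of arrays limits the precision.

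The arrays were first checked against region markers. Gata4 (transcript cluster 10420747), the GATA factor of the proximal gut, had 9.68, 9.45 and 9.47 in the jejunum, against 5.99, 5.43 and 5.39 in the ileum, and the groups did not overlap (3.93 ± 0.185). Lct, the milk sugar hydrolase lactase, had 12.04, 11.88 and 11.66 in the jejunum, against 4.64, 4.85 and 4.69 in the ileum. Slc10a2, which carries bile acids across the ileal brush border, had 5.07, 4.55 and 3.73 in the jejunum, against 11.56, 11.04 and 11.21 in the ileum. Fabp1, the liver-type fatty acid carrier, and Fabp6, the ileal bile acid carrier, were at 11.95 ± 0.25 in jejunal and 3.76 ± 0.27 in ileal arrays, and at 4.40 ± 0.47 in jejunal and 12.68 ± 0.16 in ileal arrays. All 5 markers separated the regions on every array, in the direction of their labels. The promoters of 4 of them are printed because these genes mark the ends of the comparison: the 250 bases before the RefSeq start on the gene's own strand, build GRCm38.p6, with capitals where a script found AGATAA (the GATA element), TTTATG (CDX), AGGTCA (the core element of nuclear receptors), CAAAGTCC (HNF4) or GTTAAT (HNF1) on either strand.
Lct, chr1:128328319-128328568, minus strand: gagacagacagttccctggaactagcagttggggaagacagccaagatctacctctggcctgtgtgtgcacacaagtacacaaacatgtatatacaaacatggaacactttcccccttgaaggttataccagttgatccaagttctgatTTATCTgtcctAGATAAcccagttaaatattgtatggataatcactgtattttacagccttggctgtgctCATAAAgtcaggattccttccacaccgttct
Fabp1, chr6:71199629-71199878, plus strand: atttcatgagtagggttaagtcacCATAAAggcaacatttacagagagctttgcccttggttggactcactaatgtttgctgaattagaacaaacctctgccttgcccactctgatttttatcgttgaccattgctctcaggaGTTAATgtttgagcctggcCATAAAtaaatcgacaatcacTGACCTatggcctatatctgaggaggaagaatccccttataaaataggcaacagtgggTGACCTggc
Fabp6, chr11:43601563-43601812, minus strand: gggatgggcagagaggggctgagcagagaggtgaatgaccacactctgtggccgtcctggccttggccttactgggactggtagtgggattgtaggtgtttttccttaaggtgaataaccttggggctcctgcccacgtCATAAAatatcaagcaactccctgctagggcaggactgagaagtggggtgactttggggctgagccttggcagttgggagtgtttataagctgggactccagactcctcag
Slc10a2, chr8:5105288-5105537, minus strand: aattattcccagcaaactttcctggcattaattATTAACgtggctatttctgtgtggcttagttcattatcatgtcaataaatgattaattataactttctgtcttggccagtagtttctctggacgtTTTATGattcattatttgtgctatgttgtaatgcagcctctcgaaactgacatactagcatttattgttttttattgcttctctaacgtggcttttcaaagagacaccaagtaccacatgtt
The Lct window held GATA elements on opposite strands, starting at positions -101 and -90 from the start, and a CDX element. The Fabp1 window held CDX, HNF1 and nuclear receptor elements. The Fabp6 window held a CDX element, and that of Slc10a2 an HNF1 and a CDX element. A match describes letters in the window and shows no binding.

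**Figure D1:**
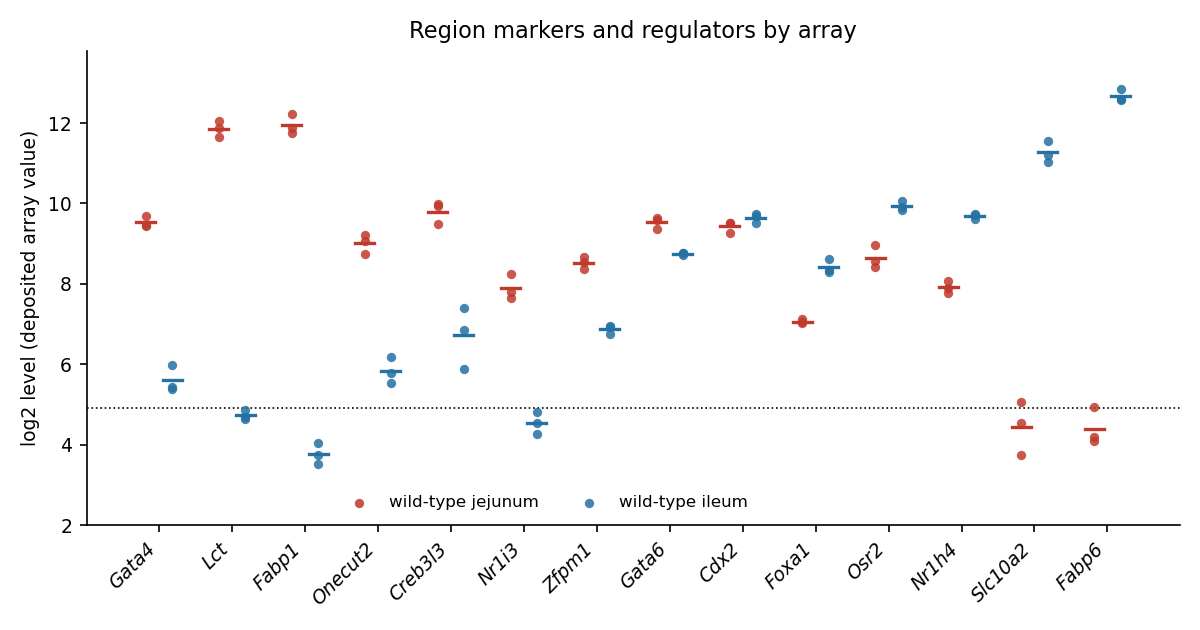
Log2 level (y axis) of region markers and regulators on each array, with points for arrays and bars for the mean of n = 3. Red points are wild-type jejunum and blue points, to their right, wild-type ileum, and the dotted line is the level filter of 4.91. Gata4 sat between 9.45 and 9.68 in the jejunum and between 5.39 and 5.99 in the ileum, whereas the Cdx2 points of the regions overlapped.

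In all, 11784 of 19938 genes were tested. Higher in the jejunum were 1575 genes, 13.4% of those tested, and lower were 932, 7.91%. These shares are the ones to set beside every list count below. At least 2-fold differences were found for 491 higher (4.17%) and 233 lower genes (1.98%), at least 4-fold for 156 and 55, and at least 16-fold for 29 and 13. Here and below, such counts go by the log2 difference, whatever the level. Of the 491, 89 had an ileum mean under the level filter, and of the 233, 60 had a jejunum mean under it. The size of the fold is uncertain for these genes. The jejunal and ileal arrays did not overlap for 40.3% of the genes tested. The median difference of all genes tested was 0.004. Among the calls 62.8% were higher, against 52.1% after quantile normalization. In bulk samples such as these, fewer cells of a type and less RNA per cell cannot be told apart, which applies to every marker group below.

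The regions stood apart on the first principal component. Of the variance among the 6 arrays, 78.9% lay on a principal component that separated the regions, with jejunal arrays at 29.64 to 37.25 and ileal arrays at -38.07 to -31.16. Pearson correlations over the tested genes were 0.9839 to 0.9891 within jejunum, 0.9775 to 0.9855 within ileum and 0.8991 to 0.9252 between regions. Medians of the 6 arrays were 4.862 to 4.926, and no array was identical to another. Markers of stromal and smooth muscle cells moved with region: 18 of the 24 on the array were tested, of which none was higher by limma (0 at an unadjusted p under 0.05) and 9 were lower in the jejunum (median difference -0.74), and their mean level was 4.79 to 5.0 in jejunal and 5.51 to 5.84 in ileal arrays. The stromal list counted 6 to 9 lower without any 1 array, 15 in the fit of the 6 arrays alone and 17 with array weights. Its defining genes Des, Dcn and Myh11 lay under 4.91 in the jejunum. Des was not called (adjusted p = 0.0861), though it was lower in the fit of the 6 arrays alone (0.00675) and with array weights (0.00499), and higher with the stromal covariate (0.0209). Dcn was not called with the replicate block (adjusted p = 0.0539), with trended robust variances (0.0529), without the level filter (0.0519), with the stromal covariate (0.897), or without any jejunal array, ileum replicate 1 or ileum replicate 3 (0.0673 to 0.121). Of B and plasma cell genes, 16 of the 20 on the array were tested, of which none was higher by limma (0 at an unadjusted p under 0.05) and 5 were lower in the jejunum (median difference -0.70), with mean levels of 5.27 to 5.50 in jejunal and 5.91 to 6.35 in ileal arrays, and 2 lower without jejunum replicate 1 or 3 or ileum replicate 2 or 3, 3 without jejunum replicate 2 and 4 without ileum replicate 1. The B and plasma cell list counted 13 lower both in the fit of the 6 arrays alone and with array weights. What part of the differences below goes with stromal and B cells was examined only by adding the mean level of the stromal genes to the model, here called the stromal covariate. Des, Dcn and Myh11 are part of that mean, so the change of their own differences with it is partly built in and decides nothing. The mean itself separated the regions, so a call lost with it, here or below, does not tell stromal cells from region. Of T and NK cell genes 1 of 12, Cd244a at 0.50 ± 0.144, was higher and 1, Ptprc at -0.90 ± 0.289, lower, against 13.4% and 7.91% of all genes tested. Cd244a was not called without jejunum replicate 1 or 3 or ileum replicate 2 (adjusted p = 0.0544 to 0.113). Ptprc was not called with the replicate block (0.0531), without the level filter (0.0502), with the stromal covariate (0.992) or without jejunum replicate 2 or 3 or ileum replicate 1 or 3 (0.0783 to 0.145). Of myeloid genes 2 of 12 were lower. Pecam1, Cdh5, Gfap, Prss2, Cpa1 and Alas2, which mark endothelium, glia, pancreas and erythrocytes, did not reach the filter. Of epithelial genes, 20 of the 20 on the array were tested, of which 1 was higher and 6 were lower in the jejunum (median difference -0.20). Epcam, Cdh1 and Cdh17, which encode surface and junction proteins of the gut epithelium, were not called, with Epcam at 10.40 ± 0.02 in jejunal and 10.55 ± 0.15 in ileal arrays, though Cdh1 was lower after quantile normalization (adjusted p = 0.0488).

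**Figure D2:**
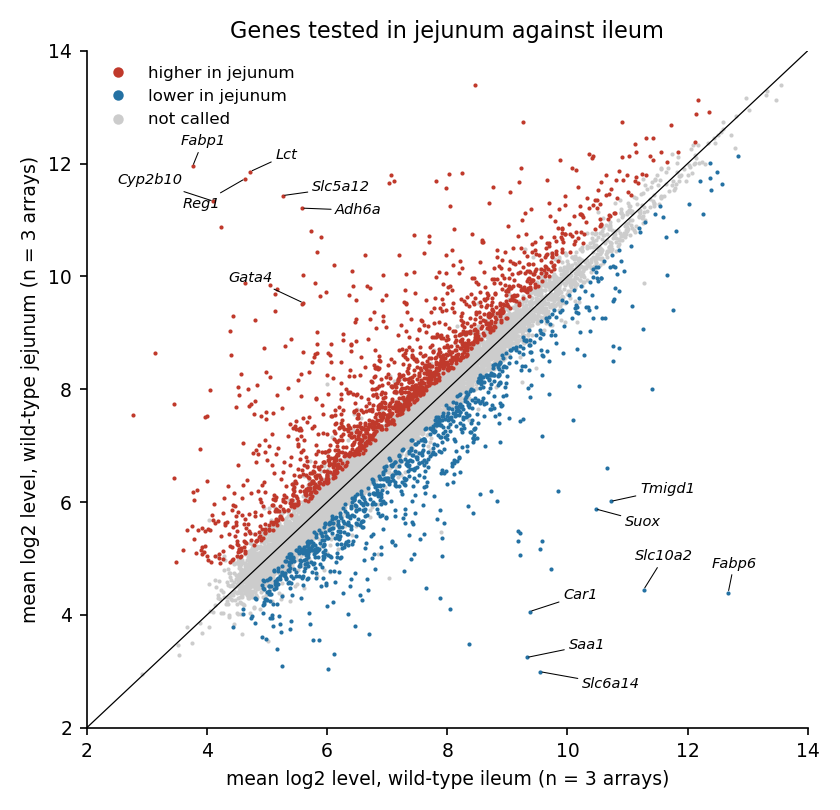
Mean log2 level in wild-type jejunum (y axis) against wild-type ileum (x axis), each over n = 3 arrays, for the 11784 genes tested. Red points are the 1575 genes called higher in the jejunum, blue points the 932 called lower and grey points those not called, with equal levels on the line; Fabp1, Lct and Cyp2b10 lie far above the line and Fabp6, Slc10a2 and Slc6a14 far below it.

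Regulators came in opposing sets. Of transcription factors of gut and other tissues, 38 of the 44 on the array were tested, of which 7 were higher and 9 were lower in the jejunum (median difference -0.10). Onecut2, a homeobox factor of foregut-derived epithelia, had 8.74, 9.21 and 9.07 in the jejunum, against 6.18, 5.53 and 5.78 in the ileum, a log2 difference of 3.18 ± 0.168 (9.07-fold, adjusted p = 6.38e-09). Creb3l3, a membrane-bound factor that drives lipid genes in liver and gut, had 9.99, 9.93 and 9.48 in the jejunum, against 7.41, 5.89 and 6.85 in the ileum, a log2 difference of 3.09 ± 0.403 (8.5-fold, adjusted p = 5.42e-05). Zfpm1, also called FOG1, is a cofactor that binds GATA proteins, and had 8.66, 8.37 and 8.54 in the jejunum, against 6.95, 6.92 and 6.75 in the ileum. None of these 3 genes overlapped between regions. Gata6 was higher by 0.79 ± 0.0997 (1.73-fold, adjusted p = 4.09e-05) and Hnf4g, an enterocyte nuclear receptor, by 0.89 ± 0.128 (1.86-fold, adjusted p = 0.000121). The control ileum had Gata6 at 9.37, 9.20 and 9.37, near the jejunal 9.37 to 9.65, and Hnf4g at 10.61 ± 0.16, near the wild-type ileum. Gata5 had 9.31, 9.21 and 8.96 in the jejunum, against 9.33, 8.86 and 8.82 in the ileum and was not called (adjusted p = 0.603).

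Lower in the jejunum were Foxa1, a forkhead factor of endoderm, at -1.36 ± 0.122, and Osr2, a zinc finger factor, at -1.29 ± 0.156. Foxa1 had 7.05, 7.02 and 7.12 in the jejunum, against 8.63, 8.34 and 8.30 in the ileum, without overlap. Ehf (-0.77 ± 0.151, 1.71-fold), an ETS factor of epithelia, Cdx1 (-0.62 ± 0.137, 1.54-fold), a hindgut homeobox factor, Foxa3 (-0.62 ± 0.14, 1.53-fold) and Id1 (-0.67 ± 0.174, 1.6-fold), a target of BMP signals, were also lower, but not with the stromal covariate (adjusted p = 0.0521 to 0.14). With the covariate the differences were -0.53 for Ehf, -0.55 for Cdx1, -0.66 for Foxa3 and -0.84 for Id1. Those of Foxa3 and Id1 were thus no smaller than without it, though the calls were lost. With the covariate the list counted 3 lower. Cdx2, the caudal homeobox factor that gives the epithelium its intestinal identity, had 9.52, 9.52 and 9.26 in the jejunum, against 9.74, 9.52 and 9.68 in the ileum, and Hnf4a was at 10.86 ± 0.06 in jejunal and 11.08 ± 0.25 in ileal arrays. Neither was called (adjusted p = 0.437 and 0.236), nor were Klf5 and Elf3, though Klf5 was lower with array weights (0.0272) and Elf3 after quantile normalization (0.0331).

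Hox genes, which record position along the body axis, were lower in the jejunum as a run of neighbours. Of Hox genes, 10 of the 37 on the array were tested, of which none was higher by limma (0 at an unadjusted p under 0.05) and 6 were lower in the jejunum (median difference -0.81), and the 6 were Hoxb3, Hoxb4, Hoxb5, Hoxb6, Hoxb7 and Hoxb9, all of the B cluster on chromosome 11. Hoxb9 had 4.87, 4.99 and 5.13 in the jejunum, against 7.30, 7.71 and 7.21 in the ileum, a log2 difference of -2.41 ± 0.261 (5.31-fold, adjusted p = 9.13e-06). Hoxb6 had 4.84, 4.67 and 4.72 in the jejunum, against 6.52, 6.72 and 6.16 in the ileum, and Hoxb5 had 3.54, 3.58 and 3.57 in the jejunum, against 6.02, 6.12 and 5.46 in the ileum. No jejunal array reached the lowest ileal one in these 3 genes. Hoxb7 (-0.91 ± 0.166), Hoxb4 (-0.81 ± 0.189) and Hoxb3 (-0.81 ± 0.204, 1.75-fold) differed less, and Hoxb3 lost its call without jejunum replicate 2 (adjusted p = 0.0583). Hoxb3 and Hoxb4 were also not called with the stromal covariate (adjusted p = 0.0869 and 0.0755), though their differences, -0.89 and -0.86, were no smaller with it. Hoxb1, Hoxb2, Hoxa4 and Hoxa7 were not called (adjusted p = 0.174, 0.856, 0.65 and 0.961). Hoxb4, Hoxb5, Hoxb6 and Hoxb7 had jejunal means under 4.91 and passed the level filter through another group. The filter thus favours lower calls among them, and the count by direction is partly built in. With the level filter 1 log2 unit higher the list counted 3 lower.

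The microRNA gene beside Hoxb9, Mir196a-1, followed the same order, and is named after its value was seen. Its array value, from the primary transcript or the hairpin and not the mature microRNA, was 2.86, 3.10 and 3.17 in the jejunum, against 5.99, 6.16 and 5.91 in the ileum, a log2 difference of -2.98 ± 0.153 (adjusted p = 5.39e-09). Of 70 microRNA genes tested 2 were higher and 4 lower in the jejunum. The 2 were Mir194-1 at 1.56 ± 0.218 and Mir215 at 1.72 ± 0.33, neighbours on chromosome 1. Mir194-1 had 7.55, 7.28 and 7.11 in the jejunum, against 6.07, 5.47 and 5.71 in the ileum, and Mir215 had 6.59, 6.50 and 6.06 in the jejunum, against 4.85, 4.61 and 4.54 in the ileum. Their mature sequences in RefSeq (GRCm38.p6) are shown, 5′ to 3′ on the plus strand, since they are the products these loci encode, with the seed (bases 2 to 8) in capitals.
mmu-miR-196a-5p, chr11:96265187-96265208: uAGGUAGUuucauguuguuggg
mmu-miR-194-5p, chr1:185313325-185313346: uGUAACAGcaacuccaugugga
mmu-miR-215-5p, chr1:185313610-185313630: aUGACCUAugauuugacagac
The 3 seeds differ, so these microRNAs form no seed family.

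**Figure D3:**
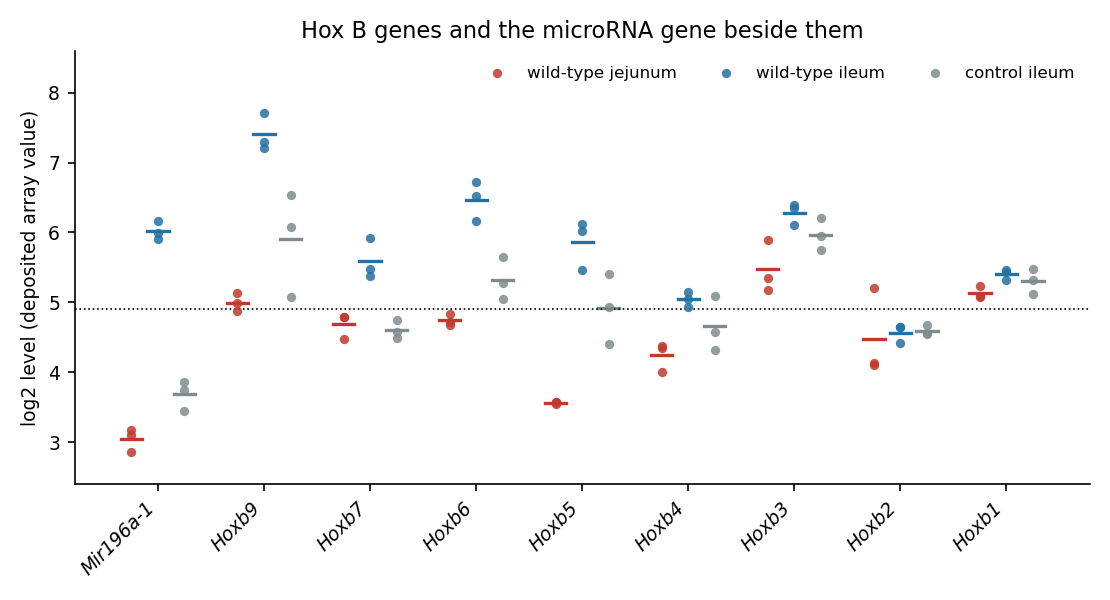
Log2 level (y axis) of Mir196a-1 and the Hox B genes on each array, with bars for the mean of n = 3, in red for wild-type jejunum, blue for wild-type ileum and grey for control ileum, and the level filter of 4.91 dotted. Every wild-type ileum point lies above every jejunum point from Mir196a-1 to Hoxb3, the arrays overlap at Hoxb2, and the control ileum means lie below those of the wild-type ileum from Mir196a-1 to Hoxb3.

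The control ileum lay below the wild-type ileum in some of these genes and overlapped it in others, such as Hoxb3 and Hoxb4. Hoxb9 was at 6.08, 5.08 and 6.54 in the 3 control ileum arrays, and Mir196a-1 at 3.45, 3.74 and 3.86. Gata4 was at 6.71, 7.22 and 6.53 there. Strain and genotype of the control mice are not given in the sources used here, and no test was made between these ileal groups.

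Nuclear receptors were called in both directions. Of their family, 31 of the 45 on the array were tested, of which 12 were higher and 5 were lower in the jejunum (median difference 0.12), against 13.4% and 7.91% of all genes tested. Higher calls also outnumbered lower ones over all genes tested. Nr1i3, the constitutive androstane receptor CAR, which turns on drug-metabolizing genes, had 7.80, 8.24 and 7.66 in the jejunum, against 4.26, 4.53 and 4.82 in the ileum, a log2 difference of 3.36 ± 0.198 (adjusted p = 2.23e-08). Nr1i2, the pregnane receptor PXR with overlapping targets, was higher by 0.58 ± 0.138 (1.49-fold, adjusted p = 0.007). The thyroid hormone receptors Thrb and Thra were higher by 1.02 ± 0.13 and 0.78 ± 0.127, and the oxysterol receptor Nr1h3 by 0.78 ± 0.179. Lower in the jejunum was Nr1h4, the bile acid receptor, with 7.78, 8.08 and 7.89 in the jejunum, against 9.71, 9.74 and 9.61 in the ileum, and also Nr2f2, at -0.65 ± 0.166. The list counted 3 lower without jejunum replicate 2 or 3 or ileum replicate 1 or 2, 2 without ileum replicate 3 and 4 without jejunum replicate 1.

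Clock genes were called more often higher than lower. Of the clock list, 14 of the 17 on the array were tested, of which 4 were higher and 1 was lower in the jejunum (median difference 0.33), against 13.4% and 7.91% of all genes tested. Dbp, an output factor, had 7.96, 7.61 and 6.46 in the jejunum, against 5.68, 5.45 and 5.29 in the ileum, a log2 difference of 1.87 ± 0.291 (3.65-fold, adjusted p = 0.000262). Nr1d1 and Nr1d2, the REV-ERB repressors, were higher by 1.80 ± 0.453 and 1.10 ± 0.2, and Nfil3, which opposes Dbp, was lower (-0.62 ± 0.118, 1.54-fold). The core factor Clock was called at 0.29 ± 0.0887, but not with the replicate block (adjusted p = 0.0557), after quantile normalization (0.161), without the level filter (0.0642), with the stromal covariate (0.521) or without any 1 array (0.0574 to 0.108). Its partner Arntl had 7.37, 7.46 and 7.56 in the jejunum, against 7.50, 7.57 and 7.69 in the ileum, and Per2 had 6.89, 6.50 and 6.14 in the jejunum, against 7.13, 6.44 and 6.38 in the ileum, neither called. The hour of collection is not given in the sources used here, and its part was not tested.

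Genes of signalling pathways were called in both directions. Of the Wnt and R-spondin list, 30 of the 53 on the array were tested, of which 2 were higher and 4 were lower in the jejunum (median difference -0.16), with 1 higher without jejunum replicate 2 or any 1 ileum array, 2 lower without jejunum replicate 2, and 9 lower with array weights. Of the BMP and TGF-beta list, 33 of the 53 on the array were tested, of which 5 were higher and 3 were lower in the jejunum (median difference -0.08), with 3 higher and 1 lower under the stromal covariate and 5 lower with array weights or after quantile normalization. Of the Notch list, 19 of the 22 on the array were tested, of which 2 were higher and 1 was lower in the jejunum (median difference -0.09), with 2 lower without jejunum replicate 3 and 4 higher and 2 lower with array weights. Of the FGF and EGF list, 24 of the 45 on the array were tested, of which 4 were higher and 5 were lower in the jejunum (median difference -0.09), with 2 lower under the stromal covariate and 8 with array weights. Of ephrins and their receptors, 12 of the 21 on the array were tested, of which 3 were higher and 2 were lower in the jejunum (median difference -0.10). The higher ephrin list members numbered 1 without jejunum replicate 2 or ileum replicate 2. Over all genes tested 13.4% were higher and 7.91% lower. Fzd4, a Wnt receptor, had 6.51, 7.17 and 6.91 in the jejunum, against 4.80, 5.18 and 4.34 in the ileum, a log2 difference of 2.09 ± 0.196 (adjusted p = 2.22e-06). Bmp1, a collagen-processing protease and no BMP ligand, was higher by 2.31 ± 0.194 (4.95-fold, adjusted p = 7.74e-07), whereas the ligand gene Bmp2 was lower (-0.85 ± 0.201, 1.81-fold). Dll1, a Notch ligand, was higher by 1.21 ± 0.149 (2.31-fold, adjusted p = 3.23e-05). Nrg4, an ErbB ligand, had 5.70, 5.71 and 5.12 in the jejunum, against 4.06, 3.69 and 3.79 in the ileum, and Epha4, an ephrin receptor, had 4.54, 4.55 and 4.68 in the jejunum, against 5.79, 6.50 and 6.09 in the ileum, with no overlap in either gene. Fgfbp1, a carrier of fibroblast growth factors, was lower, at -1.73 ± 0.165 (3.31-fold, adjusted p = 2.66e-06).

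Enzymes that oxidize and conjugate foreign compounds were higher in the jejunum. Of the cytochrome P450 genes of families 1 to 4, 28 of the 67 on the array were tested, of which 21 were higher and 1 was lower in the jejunum (median difference 1.47), against 13.4% of all genes tested higher. Cyp2b10, a classical target of CAR, had 11.49, 11.48 and 11.03 in the jejunum, against 4.37, 3.97 and 3.97 in the ileum, a log2 difference of 7.23 ± 0.33 (adjusted p = 1.67e-09). Cyp3a11, a drug-oxidizing enzyme and PXR target, had 10.66, 10.33 and 10.34 in the jejunum, against 7.35, 5.08 and 5.09 in the ileum, a log2 difference of 4.60 ± 0.525 (24.3-fold, adjusted p = 1.48e-05). Cyp2c65 and Cyp2c66, which act on arachidonic acid, were higher by 4.08 ± 0.343 and 4.42 ± 0.23. Cyp1a1, a target of the aryl hydrocarbon receptor, had 5.42, 6.89 and 6.31 in the jejunum, against 3.80, 3.79 and 3.92 in the ileum. Cyp2s1, at 9.51 ± 0.16 in jejunal and 9.74 ± 0.13 in ileal arrays, was not called, though it was lower after quantile normalization (adjusted p = 0.0456). The 1 lower gene, Cyp2w1, lost its call with the replicate block (adjusted p = 0.0658) and in each fit that left out an array (0.0515 to 0.174).

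Conjugating enzymes were mostly higher too. Of them, 33 of the 51 on the array were tested, of which 25 were higher and 1 was lower in the jejunum (median difference 0.82). Ugt2a3, a glucuronosyltransferase, had 9.82, 9.74 and 9.51 in the jejunum, against 5.25, 4.65 and 5.49 in the ileum, a log2 difference of 4.56 ± 0.281 (23.5-fold, adjusted p = 3.71e-08). Of the glutathione transferases, 6 mu-class genes side by side on chromosome 3 (Gstm7, Gstm6, Gstm3, Gstm2, Gstm1 and Gstm4) were all higher, from 0.83 ± 0.201 for Gstm2 to 3.55 ± 0.168 for Gstm6. Gstm5, of the same class, had 6.91, 7.06 and 7.05 in the jejunum, against 6.92, 7.06 and 7.14 in the ileum and was not called. Gstm3 had 11.66, 11.51 and 11.60 in the jejunum, against 9.62, 8.29 and 8.40 in the ileum, and the regions did not overlap. Probes of such close paralogs can bind each other's transcripts, and their separate values are uncertain. Gstk1, a mitochondrial and peroxisomal transferase, was higher by 2.21 ± 0.204 (4.63-fold, adjusted p = 1.95e-06), and Sult6b2, a sulfotransferase, by 2.96 ± 0.247. Mgst1, a microsomal transferase, was at 9.98 ± 0.05 in jejunal and 10.02 ± 0.09 in ileal arrays.

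Alcohol, aldehyde and keto reductase families were more often higher than lower. Of these families, 56 of the 78 on the array were tested, of which 29 were higher and 3 were lower in the jejunum (median difference 0.45). The neighbours Adh1, Adh6a, Adh4 and Adh5 on chromosome 3 were all higher. Adh6a had 11.52, 11.23 and 10.88 in the jejunum, against 5.95, 5.24 and 5.56 in the ileum, a log2 difference of 5.63 ± 0.375 (49.5-fold, adjusted p = 8.17e-08), and Adh4, which oxidizes retinol well, had 9.38, 9.29 and 9.22 in the jejunum, against 4.37, 4.38 and 4.54 in the ileum. Adh5, the glutathione-dependent formaldehyde dehydrogenase found in most tissues, was higher by only 0.65 ± 0.123 (1.57-fold, adjusted p = 0.00137), and not with the stromal covariate (adjusted p = 0.0549). Hsd17b6 and Rdh7, related dehydrogenases of steroids and retinol, were higher by 4.80 ± 0.359 and 4.26 ± 0.352. Aldh1a1, which makes retinoic acid, was higher by 1.89 ± 0.265 (3.7-fold, adjusted p = 0.000103) and Dhrs1 by 3.28 ± 0.162 (9.69-fold, adjusted p = 3.52e-09). The arylacetamide deacetylase Aadac was higher by 4.62 ± 0.514 (24.6-fold, adjusted p = 1.16e-05), and the carboxylesterase Ces2g by 3.50 ± 0.202 (11.3-fold, adjusted p = 1.82e-08). Eicosanoid enzymes included Ephx2, the soluble epoxide hydrolase, with 10.80, 10.84 and 10.47 in the jejunum, against 6.14, 5.47 and 6.10 in the ileum, and Ltc4s, leukotriene C synthase, at 1.89 ± 0.151. Of that list, 14 of the 24 on the array were tested, of which 7 were higher and 2 were lower in the jejunum (median difference 0.43), though 1 lower without any array but ileum replicate 1, and none with the stromal covariate.

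**Figure D4:**
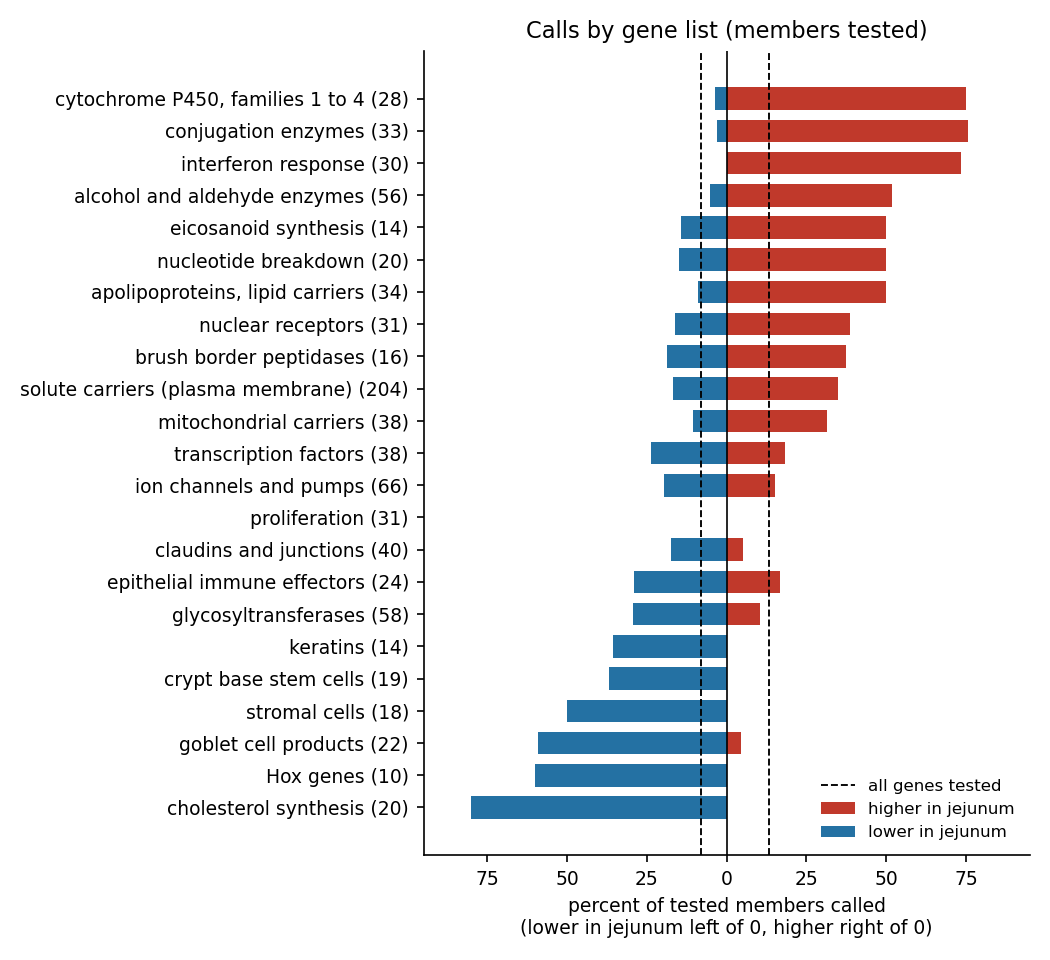
Percent of the tested members of each gene list that were called lower in wild-type jejunum than in wild-type ileum (blue, left of 0) or higher (red, right of 0), with the number tested in parentheses. The dashed lines mark the shares among all genes tested, 7.91% lower and 13.4% higher; lists of xenobiotic and interferon genes extend furthest to the right, and those of Hox, goblet cell and cholesterol synthesis genes to the left.

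Enzymes that break down nucleic acids and nucleotides were more often higher in the jejunum. Dnase1, a secreted endonuclease, had 10.06, 9.97 and 9.63 in the jejunum, against 4.79, 4.33 and 4.79 in the ileum, a log2 difference of 5.25 ± 0.407 (adjusted p = 4.15e-07). Enpp3, an ectoenzyme that cleaves nucleotides, had 11.71, 11.85 and 11.52 in the jejunum, against 6.35, 7.16 and 7.81 in the ileum, a log2 difference of 4.58 ± 0.579 (24-fold, adjusted p = 4.02e-05). Cda, cytidine deaminase, was higher by 3.17 ± 0.348 (9.03-fold, adjusted p = 1.03e-05), Xdh, which makes uric acid, by 1.75 ± 0.25 (3.37-fold, adjusted p = 0.000118), and Pnp, a purine phosphorylase, by 1.12 ± 0.177 (2.17-fold, adjusted p = 0.000303). Slc28a1, a concentrative nucleoside carrier, had 8.74, 8.92 and 8.56 in the jejunum, against 5.0, 4.73 and 5.11 in the ileum. The intestinal alkaline phosphatases Alpi and Akp3, neighbours on chromosome 1, were higher by 1.68 ± 0.302 (3.2-fold, adjusted p = 0.000864) and 2.13 ± 0.167 (4.39-fold, adjusted p = 4.61e-07). In the list of nucleotide breakdown and salvage, 20 of the 25 on the array were tested, of which 10 were higher and 3 were lower in the jejunum (median difference 0.90). Ampd3, an AMP deaminase, was lower (-1.27 ± 0.104, 2.41-fold).

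Enzymes of sphingolipid and phospholipid digestion were called in both directions. Of this list, 21 of the 23 on the array were tested, of which 9 were higher and 4 were lower in the jejunum (median difference 0.35), with 4 higher under the stromal covariate and 2 lower without jejunum replicate 1 or ileum replicate 1. Enpp7, the alkaline sphingomyelinase, had 11.06, 10.85 and 10.53 in the jejunum, against 6.46, 4.89 and 5.87 in the ileum, a log2 difference of 5.07 ± 0.534 (33.7-fold, adjusted p = 7.11e-06). Asah2, the neutral ceramidase that acts next on its product, had 11.89, 11.76 and 11.45 in the jejunum, against 7.94, 7.54 and 7.97 in the ileum, a log2 difference of 3.88 ± 0.443 (14.8-fold, adjusted p = 1.48e-05). The lysosomal acid ceramidase Asah1 was lower (-0.80 ± 0.152, 1.74-fold), as was Cers5, a ceramide synthase (-0.81 ± 0.121, 1.75-fold).

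Peptidases of the brush border divided by gene. In that list, 16 of the 19 on the array were tested, of which 6 were higher and 3 were lower in the jejunum (median difference 0.20). Ace, angiotensin-converting enzyme, had 11.93, 11.84 and 11.71 in the jejunum, against 8.48, 7.84 and 8.43 in the ileum, a log2 difference of 3.57 ± 0.397 (11.9-fold, adjusted p = 1.16e-05). Mme, neprilysin, was higher by 3.59 ± 0.514 (12-fold, adjusted p = 0.000124). Tmprss15, enteropeptidase, which starts the activation of pancreatic zymogens, had 6.91, 7.69 and 8.04 in the jejunum, against 2.91, 2.72 and 2.67 in the ileum, a log2 difference of 4.78 ± 0.664 (adjusted p = 9.38e-05). Mep1a, the alpha subunit of meprin, was lower, with 9.08, 8.67 and 8.46 in the jejunum, against 11.21, 10.61 and 10.75 in the ileum, and so was Naaladl1, a relative of glutamate carboxypeptidase, with 9.61, 9.06 and 9.54 in the jejunum, against 12.08, 11.32 and 11.88 in the ileum. The beta subunit gene Mep1b had 11.72, 11.63 and 11.54 in the jejunum, against 11.69, 11.30 and 11.54 in the ileum and was not called. Anpep and Enpep, the aminopeptidases N and A, were at 13.17 ± 0.01 in jejunal and 12.98 ± 0.22 in ileal arrays and at 12.16 ± 0.07 in jejunal and 12.13 ± 0.28 in ileal arrays, not called either (adjusted p = 0.411 and 0.936).

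Carriers of the plasma membrane were called in both directions. Of solute carriers outside the mitochondrial family, 204 of the 330 on the array were tested, of which 71 were higher and 34 were lower in the jejunum (median difference 0.15). Slc5a12, a sodium-lactate and nicotinate carrier, had 11.42, 11.44 and 11.44 in the jejunum, against 5.51, 4.55 and 5.72 in the ileum, a log2 difference of 6.17 ± 0.674 (72-fold, adjusted p = 9.88e-06). Slc23a1, a carrier of ascorbate, was higher by 4.65 ± 0.375, Slc46a1, the proton-coupled folate carrier, by 3.76 ± 0.228 (13.5-fold, adjusted p = 3.14e-08), and Slc9a3, the sodium-proton exchanger of the brush border, by 1.91 ± 0.285 (3.77-fold, adjusted p = 0.000174). Lower were Slc13a1, a sulfate carrier (-2.20 ± 0.257, 4.59-fold), Slc5a8, a carrier of short-chain fatty acids (-2.25 ± 0.322, 4.76-fold), Slc1a1, a glutamate carrier (-1.32 ± 0.115, 2.5-fold), and Slc44a4 (-1.31 ± 0.164, 2.48-fold), a thiamine pyrophosphate and choline carrier. Slc5a8 had 7.62, 9.14 and 8.77 in the jejunum, against 10.93, 10.64 and 10.72 in the ileum, without overlap. 

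Amino acid carriers were called either way. Slc36a1, which couples glycine and proline uptake to protons, had 10.15, 10.03 and 9.89 in the jejunum, against 6.83, 6.93 and 7.03 in the ileum, a log2 difference of 3.10 ± 0.259 (8.55-fold, adjusted p = 7.74e-07). Slc6a14, a broad carrier of neutral and cationic amino acids, had 2.88, 3.09 and 3.02 in the jejunum, against 9.38, 9.68 and 9.58 in the ileum, a log2 difference of -6.55 ± 0.711 (adjusted p = 9.39e-06). Slc3a1, the heavy subunit of the cystine carrier, had 11.33, 11.14 and 11.08 in the jejunum, against 11.32, 10.69 and 11.10 in the ileum, and was not called (adjusted p = 0.727).

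Ion channels and pumps were called in both directions. Of them, 66 of the 158 on the array were tested, of which 10 were higher and 13 were lower in the jejunum (median difference -0.17), against 13.4% and 7.91% of all genes tested. Among the higher ones, the water channel genes Aqp3, Aqp7, Aqp11 and Aqp1 were higher by 3.25 ± 0.375, 2.37 ± 0.407, 1.52 ± 0.112 and 0.99 ± 0.205. Aqp11, of the endoplasmic reticulum, had 9.13, 9.10 and 9.16 in the jejunum, against 7.46, 7.61 and 7.76 in the ileum. Ano6, a calcium-activated scramblase, was higher by 2.05 ± 0.202 (4.14-fold, adjusted p = 3.7e-06). On the ileal side were cation channels and pumps: Trpm6, the magnesium channel, with 4.41, 4.53 and 4.24 in the jejunum, against 6.67, 5.74 and 6.37 in the ileum, Atp2a3 (-1.51 ± 0.0994, 2.84-fold) and Atp2b1 (-1.18 ± 0.16, 2.27-fold), calcium pumps, and Kcnk6 (-1.28 ± 0.114, 2.44-fold), a potassium channel. Mitochondrial carriers held a pair with opposite extremes, Slc25a45, with 10.44, 10.30 and 9.90 in the jejunum, against 6.72, 5.63 and 5.99 in the ileum, and Slc25a48, a choline carrier, with 4.19, 4.55 and 4.18 in the jejunum, against 8.30, 7.40 and 7.96 in the ileum. In that family, 38 of the 48 on the array were tested, of which 12 were higher and 4 were lower in the jejunum (median difference 0.26).

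Arginine and proline synthesis genes were called in both directions. Of this list, 13 of the 14 on the array were tested, of which 6 were higher and 4 were lower in the jejunum (median difference 0.39). Arg2, the mitochondrial arginase, had 10.93, 10.89 and 10.71 in the jejunum, against 8.29, 7.69 and 8.35 in the ileum, a log2 difference of 2.73 ± 0.275 (6.65-fold, adjusted p = 4.51e-06), and Aldh18a1, which makes the pyrroline intermediate of proline and citrulline, was higher by 1.18 ± 0.129 (2.27-fold, adjusted p = 9.6e-06). Without ileum replicate 1 the list counted 2 lower. Otc, ornithine carbamoyltransferase, was higher by 0.39 ± 0.0918 (1.31-fold, adjusted p = 0.00681), but not with the stromal covariate (adjusted p = 0.28). Outside all lists, Casp6, an executioner caspase, had 10.05, 10.10 and 10.16 in the jejunum, against 6.41, 6.21 and 6.62 in the ileum, a log2 difference of 3.69 ± 0.131 (12.9-fold, adjusted p = 1.47e-10). Bbox1, the last enzyme of carnitine synthesis, had 8.14, 7.63 and 7.46 in the jejunum, against 3.15, 3.52 and 3.71 in the ileum. Lipid transport genes Apoa4 and Apoc3, neighbours on chromosome 9, were higher by 4.92 ± 0.547 (30.3-fold, adjusted p = 1.16e-05) and 4.72 ± 0.472 (26.4-fold, adjusted p = 4.27e-06).

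Among the genes with the largest differences, several lower in the jejunum encode metabolic enzymes. Suox, mitochondrial sulfite oxidase, had 5.96, 5.89 and 5.78 in the jejunum, against 10.66, 10.33 and 10.43 in the ileum, a log2 difference of -4.59 ± 0.151 (24.1-fold, adjusted p = 7.61e-11). Sqor, which oxidizes hydrogen sulfide in mitochondria, had 5.30, 5.54 and 5.27 in the jejunum, against 7.99, 7.77 and 8.0 in the ileum, a log2 difference of -2.55 ± 0.122 (5.87-fold, adjusted p = 2.48e-09). Neither gene overlapped between regions, and the control ileum was near the wild-type ileum in both, at 10.62 ± 0.03 for Suox and 8.22 ± 0.09 for Sqor. Ddah1, which clears asymmetric dimethylarginine, an inhibitor of nitric oxide synthases, was lower in the jejunum by -4.26 ± 0.239 (19.1-fold, adjusted p = 1.33e-08). Scd2, a stearoyl-CoA desaturase, had 8.03, 8.05 and 7.96 in the jejunum, against 11.52, 11.37 and 11.32 in the ileum, a log2 difference of -3.39 ± 0.122 (10.5-fold, adjusted p = 1.47e-10), and Mboat1, a lysophospholipid acyltransferase, had 5.23, 5.55 and 5.68 in the jejunum, against 9.14, 9.15 and 9.24 in the ileum. Tmigd1, an adhesion protein of enterocytes, had 6.55, 5.81 and 5.68 in the jejunum, against 11.19, 10.21 and 10.77 in the ileum, a log2 difference of -4.71 ± 0.299 (26.1-fold, adjusted p = 4.93e-08). Tspan1, a tetraspanin, and Hk2, a hexokinase, were lower, at -2.63 ± 0.151 (6.2-fold, adjusted p = 1.65e-08) and -2.53 ± 0.264 (5.78-fold, adjusted p = 6.61e-06).

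Cholesterol synthesis genes were mostly lower in the jejunum. Of its genes, 20 of the 20 on the array were tested, of which none was higher by limma (0 at an unadjusted p under 0.05) and 16 were lower in the jejunum (median difference -0.88). Sqle, squalene epoxidase, had 7.24, 7.27 and 7.0 in the jejunum, against 9.80, 9.47 and 9.47 in the ileum, a log2 difference of -2.41 ± 0.166 (5.31-fold, adjusted p = 1.14e-07). Hmgcs1, an early enzyme, had 8.94, 9.0 and 9.14 in the jejunum, against 10.59, 10.15 and 10.36 in the ileum, and Lss, which closes the sterol rings, had 6.72, 6.93 and 6.52 in the jejunum, against 8.38, 8.09 and 8.02 in the ileum. All 3 genes were lower on every jejunal array than on any ileal one. Srebf2, the factor that drives these genes, was lower, at -0.92 ± 0.107 (1.89-fold, adjusted p = 1.77e-05). With the stromal covariate the list counted 14 lower.

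Sugar-adding enzymes of the Golgi were more often lower. Of glycosyltransferases, 58 of the 92 on the array were tested, of which 6 were higher and 17 were lower in the jejunum (median difference -0.05). Mgat4c, an N-glycan branching enzyme, had 5.97, 6.36 and 6.29 in the jejunum, against 9.74, 9.94 and 9.87 in the ileum, a log2 difference of -3.64 ± 0.156 (12.5-fold, adjusted p = 9.69e-10), and its relative Mgat4b was lower, at -1.46 ± 0.118 (2.75-fold, adjusted p = 6.06e-07). St6galnac6, a sialyltransferase, had 4.94, 5.20 and 5.06 in the jejunum, against 9.15, 9.28 and 9.21 in the ileum, a log2 difference of -4.15 ± 0.403 (17.7-fold, adjusted p = 3.26e-06). The higher members numbered 3 without ileum replicate 2 and with the stromal covariate. Gcnt3, which branches mucin core glycans, was lower, at -1.26 ± 0.143 (2.4-fold, adjusted p = 1.35e-05). The fucosyltransferase gene Fut2, which makes the H antigen that gut bacteria feed on, had 4.51, 5.71 and 5.70 in the jejunum, against 8.15, 9.40 and 9.98 in the ileum, with wide spread, and its call was lost without jejunum replicate 1 (adjusted p = 0.0692), ileum replicate 2 (0.0509) or ileum replicate 3 (0.0658).

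Most goblet cell genes tested were lower as well. Of this list, 22 of the 29 on the array were tested, of which 1 was higher and 13 were lower in the jejunum (median difference -0.80). Muc2, the gel-forming mucin, had 11.62, 11.78 and 11.50 in the jejunum, against 12.64, 12.58 and 12.49 in the ileum, a log2 difference of -0.94 ± 0.119 (1.92-fold, adjusted p = 4.09e-05). Agr2, the isomerase that folds it, had 11.13, 11.08 and 11.10 in the jejunum, against 12.27, 12.24 and 12.25 in the ileum, a log2 difference of -1.15 ± 0.0958 (2.22-fold, adjusted p = 7.73e-07). Spdef, a factor of goblet cell maturation, and Creb3l1, a factor of secretory cells, were lower, at -1.15 ± 0.119 (2.22-fold, adjusted p = 6.44e-06) and -1.33 ± 0.11 (2.51-fold, adjusted p = 7.19e-07), and Ern2, the stress sensor of goblet cells, by -0.99 ± 0.106 (1.99-fold, adjusted p = 7.75e-06). The control ileum had Spdef at 7.31, 7.67 and 7.70, near the jejunum. Muc2 (12.46 ± 0.10), Agr2 (12.56 ± 0.03), Creb3l1 (8.35 ± 0.07) and Ern2 (8.03 ± 0.10) were near the wild-type ileum there. Zg16, a lectin of mucus, had 12.13, 12.04 and 11.78 in the jejunum, against 12.21, 11.83 and 12.06 in the ileum and was not called. The hormone gene Guca2b, uroguanylin, was the 1 higher member, and Guca2a, guanylin, was lower. The stromal markers were lower on the same arrays, and with the stromal covariate the goblet list counted 11 lower.

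Keratins and junction genes were lower in part. Of keratins, 14 of the 48 on the array were tested, of which none was higher by limma (0 at an unadjusted p under 0.05) and 5 were lower in the jejunum (median difference -0.27), among them Krt18 (-0.98 ± 0.0969, 1.97-fold) and Krt19 (-0.52 ± 0.0934, 1.43-fold), simple epithelial keratins. Krt8, the partner of Krt18, was lower, at -0.62 ± 0.105 (1.54-fold, adjusted p = 0.000539), but not with the stromal covariate (adjusted p = 0.0797). Of claudins and other junction genes, 40 of the 98 on the array were tested, of which 2 were higher and 7 were lower in the jejunum (median difference -0.17). Cldn2, a cation pore, and Cldn8, a sealing claudin of the distal gut, were lower, at -0.99 ± 0.143 (1.99-fold, adjusted p = 0.000128) and -1.74 ± 0.294 (3.33-fold, adjusted p = 0.000512), and Cldn15, a sodium pore of the small intestine, was higher by 0.83 ± 0.125 (1.78-fold, adjusted p = 0.000183). Villin, Vil1, had 12.01, 11.92 and 11.78 in the jejunum, against 11.77, 11.27 and 11.65 in the ileum, and was not called (adjusted p = 0.214).

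Epithelial immune effectors were called in both directions. Of epithelial immune effectors, 24 of the 38 on the array were tested, of which 4 were higher and 7 were lower in the jejunum (median difference -0.22), against 13.4% and 7.91% of all genes tested. Duox2, the dual oxidase that releases hydrogen peroxide into the lumen, had 5.52, 7.19 and 7.10 in the jejunum, against 10.73, 10.66 and 10.60 in the ileum, a log2 difference of -4.06 ± 0.392 (16.7-fold, adjusted p = 2.94e-06). Its maturation factor Duoxa2, the neighbouring gene on chromosome 2, had 4.80, 5.39 and 5.33 in the jejunum, against 9.45, 9.72 and 9.47 in the ileum. Nos2, inducible nitric oxide synthase, had 4.93, 5.49 and 5.95 in the jejunum, against 9.50, 9.10 and 9.03 in the ileum, a log2 difference of -3.75 ± 0.36 (13.5-fold, adjusted p = 2.81e-06). Saa1, serum amyloid A, which ileal cells make in response to bacteria, had 3.25, 3.22 and 3.27 in the jejunum, against 8.78, 9.51 and 9.68 in the ileum, a log2 difference of -6.08 ± 0.869 (adjusted p = 0.000121). None of the 4 genes overlapped between regions. The control ileum was uneven in them, with Saa1 at 6.82, 2.84 and 6.86 and Duox2 at 10.46, 9.05 and 10.38, lowest in its replicate 2. Cd14, a coreceptor for lipopolysaccharide, was lower, at -1.13 ± 0.173 (2.19-fold, adjusted p = 0.000211), and Sting1, a sensor of cyclic dinucleotides, by -1.51 ± 0.308 (2.84-fold, adjusted p = 0.00231).

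On the jejunal side of the same list stood cytokines. Il33, an alarmin, had 8.33, 7.75 and 7.30 in the jejunum, against 4.93, 4.91 and 4.58 in the ileum, a log2 difference of 2.99 ± 0.3 (adjusted p = 4.37e-06). Il15, which sustains intraepithelial lymphocytes, had 7.58, 8.20 and 7.48 in the jejunum, against 6.36, 6.37 and 6.66 in the ileum, a log2 difference of 1.29 ± 0.211 (2.45-fold, adjusted p = 0.000385), and Ccl25, which draws lymphocytes to the small bowel, was higher by 0.49 ± 0.101 (1.41-fold, adjusted p = 0.00242). Cd8a and Cd3e, which mark T cells, were not called, although Cd8a was higher with the stromal covariate (adjusted p = 0.011), with Cd8a at 6.64 ± 0.32 in jejunal and 6.11 ± 0.60 in ileal arrays and Cd3e at 6.72 ± 0.47 in jejunal and 6.56 ± 0.32 in ileal arrays. Gasdermins, which form pores in membranes, divided: Gsdmd was higher by 1.13 ± 0.257 (2.19-fold, adjusted p = 0.00489), whereas Gsdme and Gsdmc2 were lower, at -2.18 ± 0.202 (4.54-fold, adjusted p = 1.99e-06) and -2.02 ± 0.26 (4.07-fold, adjusted p = 4.62e-05). Gsdma and Gsdmc4 were not called (adjusted p = 0.438 and 0.192), though Gsdmc4 was lower with the replicate block (0.0302). In the Reg family, Reg1 had 10.87, 12.25 and 12.07 in the jejunum, against 4.20, 4.54 and 5.16 in the ileum, and Reg4 was lower, at -1.16 ± 0.277 (2.23-fold, adjusted p = 0.00703), but not with the stromal covariate (adjusted p = 0.6). The control ileum had Reg4 at 8.93, 10.14 and 9.03, near the jejunum, and Reg1 at 6.35 ± 0.44, nearer the wild-type ileum. Reg3g, a lectin that kills Gram-positive bacteria, had 11.76, 12.53 and 12.57 in the jejunum, against 12.66, 12.92 and 12.79 in the ileum, and was not called.

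Interferon-induced genes were higher in the jejunum. Of this list, 30 of the 33 on the array were tested, of which 22 were higher and none was lower by limma (0 at an unadjusted p under 0.05) in the jejunum (median difference 1.32). Ifit1, which binds viral RNA, had 8.45, 8.33 and 9.14 in the jejunum, against 6.57, 5.49 and 5.43 in the ileum, a log2 difference of 2.81 ± 0.374 (7.01-fold, adjusted p = 6.47e-05). Rtp4 had 7.67, 7.25 and 8.20 in the jejunum, against 5.15, 4.28 and 4.67 in the ileum, a log2 difference of 3.0 ± 0.452 (adjusted p = 0.000192). Cmpk2, Rsad2 and Irf9, a subunit of the factor that relays interferon signals, were higher by 1.58 ± 0.234, 1.88 ± 0.365 and 0.93 ± 0.163. Jejunal arrays lay above all ileal arrays for each of these genes. The list counted 16 to 21 higher without any 1 array. In the control ileum Ifit1 was at 7.86, 8.04 and 6.57 and Rtp4 at 6.08, 7.94 and 5.70. Rtp4 lay above every wild-type ileal array there, with replicate 2 within the jejunal range. Ifit1 lay below every jejunal array, and its lowest value met the highest of the wild-type ileum, 6.57. Irf9 was at 7.37 ± 0.39 in the control ileum, against 7.31 ± 0.03 in the jejunum. Rsad2, at 6.37, 7.01 and 5.22 there, overlapped the wild-type ileum. Of the MHC genes, 25 of the 38 on the array were tested, of which 8 were higher and 3 were lower in the jejunum (median difference -0.02). The 8 serve class I presentation, with H2-Q2 at 2.34 ± 0.311 (5.08-fold, adjusted p = 6.2e-05), B2m, the class I light chain, at 0.66 ± 0.123 (1.58-fold, adjusted p = 0.00116) and the peptide pump Tap2 at 0.79 ± 0.145 (1.73-fold, adjusted p = 0.00101). However, B2m was at 12.51, 12.70 and 12.44 in the control ileum, above every jejunal array. H2-Q2 (8.72 ± 0.37) and Tap2 (7.02 ± 0.09) were near the wild-type ileum there. The 3 lower ones, H2-Aa, Cd74 and Ciita, serve class II, and were not called with the stromal covariate (adjusted p = 0.083, 0.127 and 0.265). Ciita was also not called with the replicate block (adjusted p = 0.0518), nor without jejunum replicate 1 (0.177) or 2 (0.0698) or ileum replicate 1 (0.0861) or 2 (0.148). The class I gene copies are near identical, and their separate values are uncertain.

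Hormone genes were called in both directions. Of hormone cell genes, 25 of the 34 on the array were tested, of which 5 were higher and 3 were lower in the jejunum (median difference 0.36), against 13.4% and 7.91% of all genes tested. Gip, the incretin of K cells, had 8.68, 8.77 and 8.45 in the jejunum, against 5.57, 5.43 and 6.41 in the ileum, and Cck, cholecystokinin, had 6.75, 7.17 and 6.34 in the jejunum, against 5.10, 4.79 and 5.10 in the ileum. Ddc, which makes serotonin and dopamine, had 10.14, 10.01 and 10.04 in the jejunum, against 8.01, 7.79 and 8.16 in the ileum, a log2 difference of 2.08 ± 0.183 (4.22-fold, adjusted p = 1.28e-06). Lower were Pyy, peptide YY, with 5.64, 5.86 and 5.39 in the jejunum, against 7.56, 6.81 and 7.51 in the ileum, Gcg, proglucagon, at -1.43 ± 0.285, and Tac1, substance P, at -3.17 ± 0.553. The wild-type regions did not overlap in any of these 6 genes. However, the control ileum had Gip at 7.67, 9.15 and 7.83, near the jejunum. Cck was at 6.07, 6.34 and 6.08 there, above every wild-type ileal array. Ddc (7.98 ± 0.14) was near the wild-type ileum there, and Pyy (7.86 ± 0.59) and Tac1 (7.51, 5.99 and 7.49) overlapped it. Gcg, at 8.58, 9.31 and 8.25, lay above it. Pyy and Gcg were not called with the stromal covariate (adjusted p = 0.0782 and 0.18). The shared marker Chga had 7.76, 8.11 and 7.24 in the jejunum, against 7.11, 6.76 and 7.56 in the ileum, and was not called, except without jejunum replicate 3 (adjusted p = 0.0276) or ileum replicate 3 (0.0424). Sst, somatostatin, was not called (adjusted p = 0.256). Without jejunum replicate 3 the list counted 8 higher, and 4 to 6 without any other array.

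Crypt genes were lower in the jejunum in part, and proliferation genes were not called. Of stem cell genes, 19 of the 19 on the array were tested, of which none was higher by limma (0 at an unadjusted p under 0.05) and 7 were lower in the jejunum (median difference -0.30). Lgr5, the receptor that marks crypt base stem cells, had 6.36, 6.23 and 6.47 in the jejunum, against 6.89, 7.21 and 7.32 in the ileum, a log2 difference of -0.79 ± 0.17 (1.72-fold, adjusted p = 0.00342). Prom1, which encodes a membrane protein of crypts, had 7.09, 7.08 and 7.23 in the jejunum, against 8.38, 8.66 and 8.45 in the ileum, a log2 difference of -1.36 ± 0.233 (2.57-fold, adjusted p = 0.000553), and Axin2, a target of Wnt signals, was lower, at -0.63 ± 0.142 (1.55-fold, adjusted p = 0.00475). Olfm4, an abundant crypt transcript, had 11.27, 11.66 and 11.73 in the jejunum, against 11.06, 11.56 and 11.38 in the ileum, and was not called. Atoh1, which specifies secretory cells, was lower, at -1.08 ± 0.0981 (2.11-fold, adjusted p = 1.74e-06). Of proliferation genes, 31 of the 31 on the array were tested, of which none was higher by limma (0 at an unadjusted p under 0.05) and none was lower by limma (0 at an unadjusted p under 0.05) in the jejunum (median difference -0.15), with Mki67 at 9.36, 9.68 and 9.68 in the jejunum, against 9.57, 9.99 and 9.76 in the ileum. Lyz1, the Paneth cell lysozyme, had 12.80, 12.44 and 12.43 in the jejunum, against 12.56, 12.52 and 12.60 in the ileum, and the defensin gene Defa24 was at 10.95 ± 0.12 in jejunal and 11.26 ± 0.17 in ileal arrays, neither called. Of Paneth cell products, 11 of the 15 on the array were tested, of which 1 was higher and 3 were lower in the jejunum (median difference -0.48), and the lower ones numbered 5 without jejunum replicate 1, 2 without jejunum replicate 2 or 3 and 1 with the stromal covariate. The higher one was lost with that covariate and without jejunum replicate 1 or 3 or ileum replicate 1 or 2. With the stromal covariate the stem cell list counted 5 lower.

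The colon markers did not move as a block. Of this list, 13 of the 19 on the array were tested, of which 3 were higher and 6 were lower in the jejunum (median difference -0.75). Car1, a carbonic anhydrase of the colon, had 4.35, 3.89 and 3.94 in the jejunum, against 10.26, 9.53 and 8.34 in the ileum, a log2 difference of -5.31 ± 0.34 (adjusted p = 5.32e-08), and the control ileum had 4.50, 4.39 and 3.98, the jejunal level. Aqp8, also of the colon, had 5.10, 5.63 and 5.77 in the jejunum, against 4.38, 4.13 and 3.65 in the ileum, and Slc26a3, the chloride exchanger, was higher in the jejunum by 0.80 ± 0.13 (1.74-fold, adjusted p = 0.000381). Gkn1 of the stomach did not reach the filter, and Pdx1 of the duodenum was not called (adjusted p = 0.0882), though higher in the fit of the 6 arrays alone (0.0206) and with array weights (0.0076). Other genes with a high wild-type ileal level and a lower one in the control ileum were Slc6a14, at 7.53, 3.05 and 5.13, and St6galnac6, at 7.73, 5.88 and 7.90. Fabp6, at 12.40, 12.56 and 12.35, and Slc10a2, at 10.44, 9.89 and 10.12, stayed high in the control ileum.

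Several gene families held close relatives or partners called in opposite directions. Car2, a cytosolic carbonic anhydrase, had 7.13, 9.21 and 8.49 in the jejunum, against 4.85, 4.05 and 4.79 in the ileum, opposite to Car1. Guca2b, uroguanylin, had 12.90, 12.81 and 12.48 in the jejunum, against 11.01, 10.68 and 11.01 in the ileum, while Guca2a, guanylin, which binds the same receptor, had 9.69, 9.64 and 9.11 in the jejunum, against 11.24, 10.99 and 11.02 in the ileum. Epha1 was higher by 0.80 ± 0.153 (1.74-fold, adjusted p = 0.00144) and Epha4 lower (-1.54 ± 0.171). The ErbB ligand Nrg4 was higher (1.66 ± 0.156) and the EGF receptor ligand Ereg lower (-1.81 ± 0.314, 3.52-fold), though Ereg not with the stromal covariate (adjusted p = 0.0661). These pairs were picked after their values were seen, and only describe where a family was divided.

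**Figure D5:**
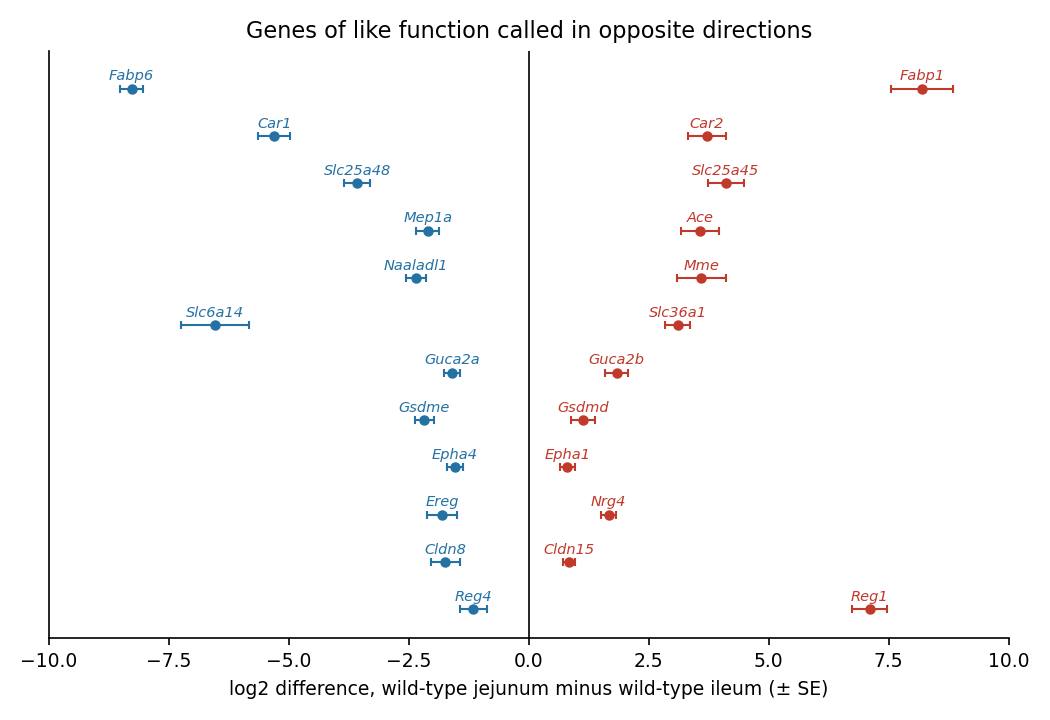
Log2 difference of wild-type jejunum minus wild-type ileum (x axis, ± SE of the linear model) for 12 pairs of genes, 1 pair a row. Paired genes share a family or a broad class, such as claudins or brush border peptidases, and may differ in function. Red points, right of 0, were called higher in the jejunum and blue points, left of 0, lower; the widest pair is Fabp1, at 8.19, and Fabp6, at -8.28.

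Called genes often lay next to each other. Of 1573 higher genes placed on the chromosomes 608 (38.7%) had a higher gene as an adjacent tested gene, against 24.4% of all genes placed. For lower genes it was 217 of 929 (23.4%), against 14.9%. Runs of at least 3 called neighbours numbered 60 for higher and 17 for lower genes. The longest was that of Mir196a-1 and 6 Hox B genes, 7 in all. Other runs held Ugt2b5, Ugt2a3, Ugt2b38, Sult1b1 and Sult1d1 on chromosome 5, and Cyp2c65, Cyp2c66, Cyp2c67 and Cyp2c68 on chromosome 19, copies of ancestral genes whose probes may share targets. A run of 6 on chromosome 19 joined genes of unlike function: Fas, a death receptor, Lipa, a lysosomal lipase, Ifit3, Ifit1bl2, Ifit1 and Slc16a12. Lipa was higher by 2.23 ± 0.294 (4.7-fold, adjusted p = 5.82e-05) and Fas by 0.96 ± 0.154 (1.94-fold, adjusted p = 0.00035). Sult1d1 was not called without jejunum replicate 2 (adjusted p = 0.0608), and Ifit3 not without jejunum replicate 3 (0.0556) or ileum replicate 2 (0.0522).

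Short motifs were counted in RefSeq promoters of the same length, from 250 bases before to 50 after the start, on both strands. A GATA element, AGATAA, was in 11.2% of 394 promoters of genes at least 2-fold higher, in 11.9% of 177 of genes at least 2-fold lower and in 6.5% of the 9410 promoters of tested genes. The nuclear receptor core AGGTCA was in 18.8%, 10.7% and 12.6% in the same order, and the HNF4 motif CAAAGTCC in 4.6%, 1.7% and 1.6%. For the CDX motif TTTATG it was 9.9%, 10.7% and 6.5%, and for the HNF1 motif GTTAAT 8.9%, 7.9% and 4.1%. The shares for GATA, CDX and HNF1 motifs were thus near each other in the regions and above that of all promoters, and those for AGGTCA and CAAAGTCC were highest among genes higher in the jejunum. No motif holds another within its letters. These shares were not tested.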

How the data were processed

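RNA of isolated epithelium was hybridised to Affymetrix Mouse Gene 1.0 arrays after whole transcript sense labelling, per the labels' protocols. The authors deposited log2 values for 35556 transcript clusters, made with Partek per the submitters' processing notes. Its version, background correction, normalization and summarization are not given in the sources used here. Names came from the platform annotation: 21789 clusters had 1 symbol, 1621 several and 12146 are not listed there and unnamed here. The first group are 19938 symbols, 999 of them with several clusters, of which the one with the highest mean was used.

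Differences were fitted with limma 3.58.1 in R 4.3.3 on 15 arrays in 5 groups (10 residual degrees of freedom), with Benjamini-Hochberg adjustment over the 11784 genes tested. The script was tested on simulated data with 50 genes changed at each fold size, and called 62% of those changed 1.5-fold, 84% at 2-fold and 100% at 4-fold and at 8-fold, with 3.35% false calls. A far larger share of genes, 21.3%, was called in the real data, and the simulated arrays deviated independently. The simulated shares check the script and need not hold for this comparison. Same-numbered jejunal and ileal arrays deviated together (correlations of 0.334, 0.216 and 0.161), against -0.263 to 0.063 for arrays of unlike number. Deviations from a group mean cancel out within the group, so these values are partly tied to each other. The number was treated as a pairing taken from the data, and a blocked fit was added. Other alternatives were the 6 arrays alone, quantile normalization, centring on medians, other level filters, the mean of a symbol's clusters, another variance model, array weights, a stromal covariate and each array left out.

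Members and gene lists were chosen with earlier results of these data known. A rule set which genes could be named: Gata4, Gata5, Gata6 and the 5 markers, the 20 largest called differences each way (over all genes, and over those with both means above the filter), up to 8 called members of a list each way by adjusted p, up to 4 uncalled ones by level, members of lists of at most 12 tested genes, and neighbours named for position. Not every gene it allowed is named. Of the lists of at most 12, only the Hox and gasdermin lists are shown whole, and members of the others were picked. Aldh1a1, Bbox1, Casp6, Cdx2, Dcn, Des, Epcam, Slc9a3, Sting1, Vil1 and the microRNA genes lie outside the rule and were chosen after their values were seen. Promoters and microRNAs are RefSeq's.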

Additional observations from a re-analysis of the deposited data

How the results depend on the processing

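The main counts were 1575 higher and 932 lower genes, and 491 and 233 at 2-fold or more. With any 1 array left out they were 1121 to 1594 and 692 to 777, and 423 to 538 and 210 to 241. With array weights 2316 genes were higher and 1651 lower, and with the stromal covariate 969 and 629. With the replicate block, which uses the pairing of same-numbered arrays, they were 1494 and 869, and 492 and 230. The block ended the calls of Ciita, Clock, Cyp2w1, Dcn and Ptprc and added Gsdmc4 (values beside each), and changed no other named gene's call. Quantile normalization gave 52.1% of calls higher, and moved the median difference to -0.04. The cause of these shifts was not tested. Of 203 named genes called, 176 were called the same way under every alternative and 193 without any 1 array. With the stromal covariate the sign turned for Cyp2w1 (0.01), Dcn (0.11) and Ptprc (0.01) among called genes, and for the uncalled Des (0.72), Per2 (0.53), Hoxb2 (0.22), Hoxa7 (0.04), Lyz1 (0.04), Zg16 (0.04) and Mep1b (-0.15). Dcn and Des are part of that covariate, so their turn is partly built in. The uncalled Hoxa7 (0.10) and Per2 (0.02) turned with array weights and Lyz1 (0.01) with centring. With any 1 array left out the difference of uncalled genes crossed 0: Cd3e -0.09 to 0.36, Enpep -0.11 to 0.17, Gstm5 -0.09 to 0.02, Hoxa4 -0.21 to 0.01, Hoxa7 -0.18 to 0.14, Hoxb2 -0.45 to 0.11, Lyz1 -0.12 to 0.06, Per2 -0.33 to 0.10, Slc3a1 -0.02 to 0.29 and Zg16 -0.15 to 0.05. With 3 arrays a region, differences under about 2-fold were missed in part in simulated data, whose setting differed from these data. Means under 4.91 have no fold.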

Other observations

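Genes of oxidative phosphorylation, the chain that makes most ATP in mitochondria, were higher in the jejunum by small steps. Of this list, 86 of the 90 on the array were tested, of which 23 were higher and none was lower by limma (0 at an unadjusted p under 0.05) in the jejunum (median difference 0.26). The count was unsteady: 9 or 10 higher without jejunum replicate 1 or 2 or ileum replicate 1, 14 without ileum replicate 2, and 5 with the stromal covariate. Of genes of folding in the endoplasmic reticulum, 28 of the 29 on the array were tested, of which 1 was higher and 9 were lower in the jejunum (median difference -0.25), with 15 lower after quantile normalization and 4 to 5 without jejunum replicate 2 or ileum replicate 2 or 3.

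Of tuft cell genes, which mark a rare chemosensory cell, 15 of the 26 on the array were tested, of which 3 were higher and 1 was lower in the jejunum (median difference 0.09), against 13.4% and 7.91% of all genes tested. Without jejunum replicate 2 or 3 or ileum replicate 1 or 2 a single one was higher. Of ABC transporters, 30 of the 51 on the array were tested, of which 10 were higher and 5 were lower in the jejunum (median difference 0.07), with 3 lower without jejunum replicate 1 or 3 or ileum replicate 1. Of metallothioneins and zinc carriers, 24 of the 28 on the array were tested, of which 7 were higher and 1 was lower in the jejunum (median difference 0.07), with 2 higher under the stromal covariate. Of cytosolic ribosomal proteins, 58 of the 61 on the array were tested, of which none was higher by limma (1 at an unadjusted p under 0.05) and 2 were lower in the jejunum (median difference -0.17), and 12 were lower after quantile normalization.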
